A study of Canis lupus familiaris with 6 samples.

Results

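The genes described here build the contacts that join neighbouring epithelial cells: the claudins and other tight junction proteins, the desmosomal proteins and the gap junction connexins. They were measured in 3 canine mammary tumor cell lines that were grown alone or together with myeloid-derived suppressor cells (MDSCs). Members were chosen by name alone, as every probe that is no control spot and whose gene name is CLDN with a number, OCLN, TJP with a number, F11R, JAM2, JAM3, MARVELD2, MARVELD3, DSG1 to DSG4, DSC1 to DSC3, DSP, JUP, PKP1 to PKP4, or GJA, GJB, GJC or GJD with a number. This gave 48 genes with 69 probes of the 43603 probes on the array, and 11 of the genes had more than 1 probe. No probe was found under the names DSP and DSC3. CLDN25 and a second CLDN2 probe stayed under the filter on dim probes, so 47 genes were tested among 13191 named genes, each by its brightest probe.

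P114 comes from an anaplastic cancer, CMT-U27 from a simple carcinoma and CMT-U309 from a spindle cell tumor, and the labels name no treatment other than the co-culture. MDSCs, which are immature myeloid cells, had been sorted from blood of healthy dogs and were kept in inserts above the tumor cells, so the harvested RNA is that of the compartment of the tumor cells. Co-culture lasted at least 72 h according to the sample descriptions, and the study's methods give a shorter time. Each line contributed 1 monoculture RNA and 1 co-culture RNA, labelled with Cy5 and Cy3 and hybridized together to Agilent 2-color canine arrays, once in each dye orientation, which gave 6 arrays and 12 dye channels. Both arrays of a line carry the same pair of RNA samples and were counted as 1 replicate.

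Tight junctions close the space between epithelial cells near the apical side. Claudins form their strands and set which ions pass, occludin and tricellulin are further membrane proteins of the strand, and the ZO proteins tie the strands to actin. Desmosomes join keratin filaments of neighbouring cells through the cadherins desmoglein and desmocollin and the plaque proteins plakoglobin and plakophilin. Gap junctions are channels made of connexins through which small molecules pass from cell to cell. In the mammary gland all of these mark the epithelium, although some connexins and JAM proteins are also made by stromal, vascular and other cells.

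Members of these families are close relatives, so the sequences of the probes decide which gene is read. All 69 probes are 60 bases long with a GC content of 26.7% to 80.0%, and the longest run that a probe shared with a probe of any other gene of the list was 7 to 11 bases. Probes were compared only with one another and not with whole transcripts, so binding to transcripts of related genes was not tested. The probes of 9 genes on which the results below turn are printed 5′ to 3′, with the longest such shared run in capitals. Positions are on canFam2 as the array files give them, and exon or UTR annotation on that build was not used here.
CLDN1, chr34:25315989-25317718, minus strand, a probe that spans 1730 bases of the genome: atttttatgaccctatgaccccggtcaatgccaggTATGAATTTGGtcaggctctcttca
CLDN4, chr6:9494899-9494958, minus strand: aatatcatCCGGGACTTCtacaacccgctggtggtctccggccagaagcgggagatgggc
CLDN7, chr5:35220905-35221060, minus strand: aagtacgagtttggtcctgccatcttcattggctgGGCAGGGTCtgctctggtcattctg
CLDN8, chr31:28107082-28107141, minus strand: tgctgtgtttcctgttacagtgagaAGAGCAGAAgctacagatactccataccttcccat
OCLN, chr2:57418076-57418135, plus strand: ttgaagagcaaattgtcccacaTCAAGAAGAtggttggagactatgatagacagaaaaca
DSC2, the dimmer of its probes, chr7:61380000-61380059, plus strand: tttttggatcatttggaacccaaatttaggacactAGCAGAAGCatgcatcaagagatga
GJA1, chr1:63995853-63995912, plus strand: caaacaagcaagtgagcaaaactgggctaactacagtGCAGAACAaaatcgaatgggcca
GJB2, a probe of its dimmer pair, chr25:20940515-20940574, plus strand: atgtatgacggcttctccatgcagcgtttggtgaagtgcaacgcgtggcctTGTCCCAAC
GJB5, chr15:10205433-10205492, minus strand: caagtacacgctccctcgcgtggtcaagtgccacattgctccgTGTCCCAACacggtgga
The capitals of the GJB2 and GJB5 probes are the same 9 bases, in 2 genes whose levels followed different orders among the lines.

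A level below is the log2 of the processed signal once all channels had been brought to one median of 67.86, given as the mean of the Cy5 and Cy3 channel of an RNA sample. Over the channels 53.0% to 81.0% of spots were well above background, a flag that the scanner software sets from the signal of a spot and the spread of its background, and medians before scaling were 59.0 to 189. A line had 4 channels, so a gene could be well above background in 0 to 4 of them. The lines were checked against marker genes. All 6 of the 9 epithelial markers that were found, EPCAM and CDH1 among them, were higher in CMT-U27 than in both other lines, and all 8 of the 10 mesenchymal markers that were found, VIM among them, were lower there. The summed scaled signal of the epithelial markers was 1328 to 1890 in P114 and 106257 to 125406 in CMT-U27, against 292 to 355 in CMT-U309. Not every marker was dim in the latter lines: EPCAM and KRT19 had mean levels of 9.18 and 9.67 in P114 and were well above background there in all 4 channels, and ESRP1 stood at 6.69 in CMT-U309 and 3.68 in P114. CDH1, the adhesion protein of epithelial cells, was well above background in 2 of 4 channels of P114 and of CMT-U309. This marker order was shared by part of the junction genes below, while others, GJB2, JAM2 and GJA1 among them, followed other orders. The part of the marker order in the junction gene levels was not tested.

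Of the 47 tested genes, 30 were well above background in all 4 channels of CMT-U27, 25 in those of P114 and 21 in those of CMT-U309, and 19 were so in all 12 channels. The order was the same over all 13191 named genes, of which 9143 were well above background in all 4 channels of CMT-U27, 8811 in those of P114 and 8693 in those of CMT-U309. The median level over the list was 5.93 in P114 and 5.28 in CMT-U309 but 6.88 in CMT-U27, against 7.32, 7.39 and 7.47 over all named genes.

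**Figure D1:**
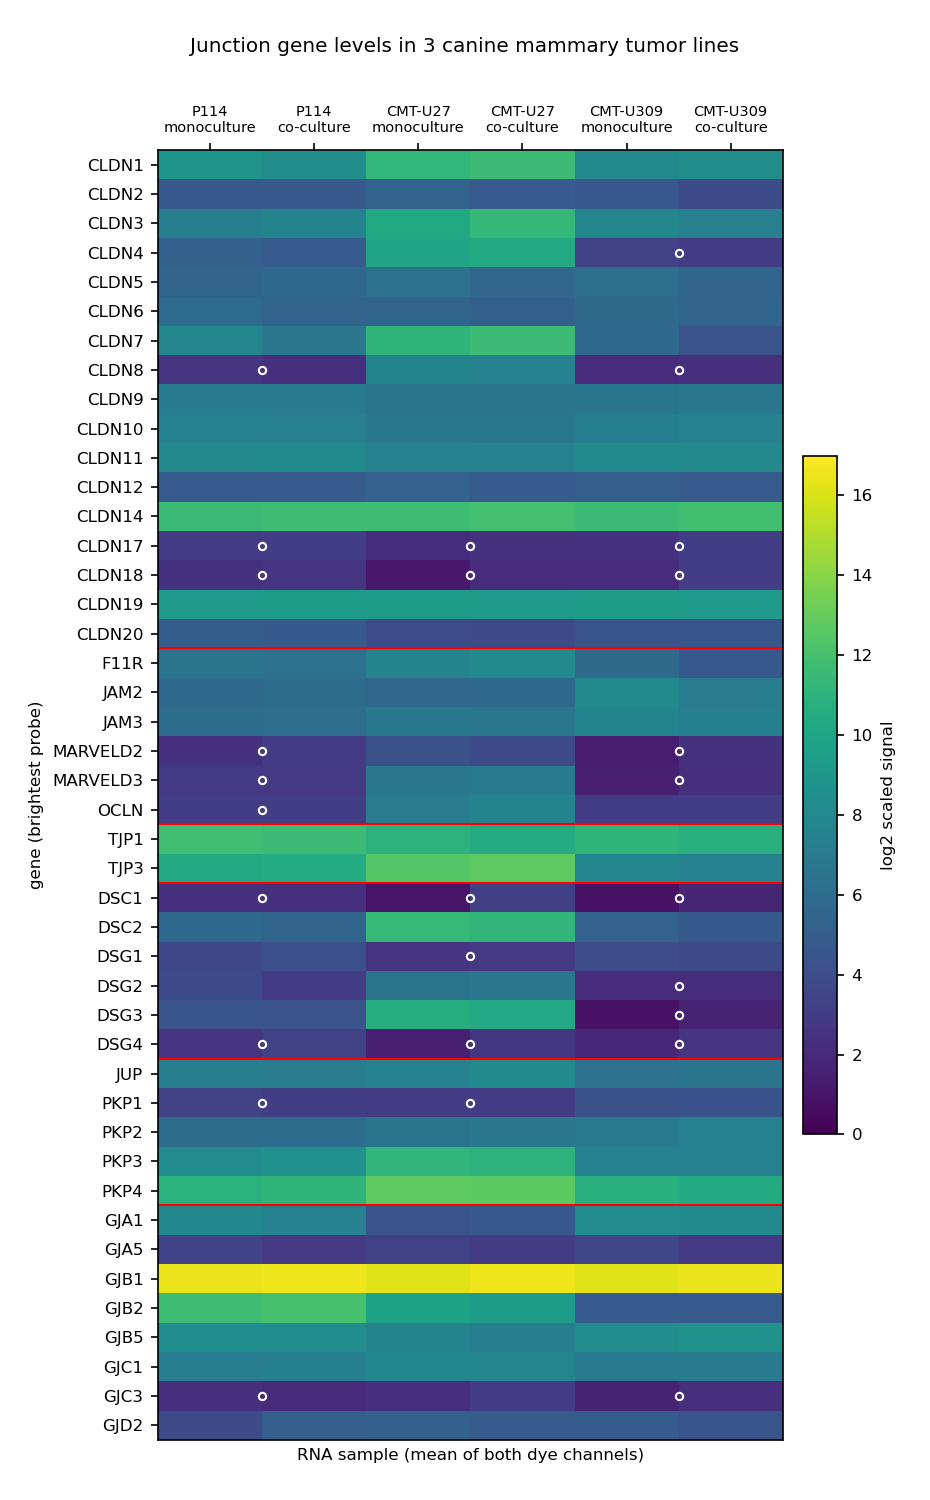
Level of 44 of the 47 tested genes (rows, brightest probe) in each of the 6 RNA samples (columns), as log2 scaled signal on the colour scale, with red lines between the gene groups. A white ring marks a line in which the gene was well above background in 0 of 4 channels; the brighter blocks under CMT-U27 are CLDN1, CLDN3, CLDN4, CLDN7, CLDN8, OCLN, TJP3, DSC2, DSG3 and PKP3.

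Lines were compared with limma on the 6 RNA samples, with a term for co-culture and Benjamini-Hochberg adjustment over 40873 probes. With 1 culture of each kind, the error is the deviation of a line from the shared co-culture difference and not a spread between cultures. Each line was also hybridized on a slide of its own, so line and slide cannot be told apart, nor can fewer cells with a transcript and less transcript per cell. At an adjusted p under 0.05, 19 of 47 junction genes were higher in CMT-U27 than in P114 (40.4%, where 27% of all named genes were) and 10 were higher in P114 (21.3%, against 20.1%). CMT-U27 exceeded CMT-U309 in 20 genes (42.6%, against 31.2%) and was exceeded in 10 (21.3%, against 21.3%). CMT-U309 exceeded P114 in 3 genes (6.38%, against 14.3%) and was exceeded in 14 (29.8%, against 18.4%).

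The large differences were more one-sided. Over 4-fold and past the adjusted threshold, a rule chosen after the values were seen, were 12 genes higher in CMT-U27 than in P114 (25.5%, against 5.38% of all named genes) and 3 genes higher in P114 (6.38%, against 3.98%). Between CMT-U27 and CMT-U309 there were 17 (36.2%, against 5.48%) and 1 (2.13%, against 5.56%). Between CMT-U309 and P114 there were 0 (0.0%, against 3.36%) and 5 (10.6%, against 1.71%). These counts rest on the brightest probe of each gene. By its other probes JAM2 was over 4-fold higher in CMT-U309 than in either other line, for instance 4.37-fold and 7.6-fold over P114 against 3.25-fold by the brightest. The other JAM2 pair had 0 of 4 channels well above background in P114 and gave at least 12.8-fold and at least 5.51-fold. Where a line had 0 of 4 channels well above background only a bound can be given, and with such genes at their bound the 17 became 16, without MARVELD2, and the 5 became 4, without DSG3. The median difference over the genes, with bounds, was 0.38 for CMT-U27 minus P114, 0.42 for CMT-U27 minus CMT-U309 and -0.07 for CMT-U309 minus P114 on the log2 scale, against 0.0, 0.06 and -0.01 over all named genes.

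Scaling bears on the smaller differences. Without it the median over all probes moved by 0.77 for CMT-U309 minus P114, and the 3 higher and 14 lower genes of that pair became 18 higher and 7 lower, where 55.5% of all named genes were higher and 4.25% lower. With normexp background correction and an offset of 50, which is added to every signal and so shrinks the differences of dim genes, they became 6 and 10 (16.5% and 14.1% of all named genes). For CMT-U27 minus P114 the shift without scaling was 0.47 and the split went from 19 and 10 to 24 and 5 (43.3% and 9.92% of all named genes). For CMT-U27 minus CMT-U309 the shift was -0.31 and the split went from 20 and 10 to 19 and 13 (22.6% and 32.4% of all named genes).

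**Figure D2:**
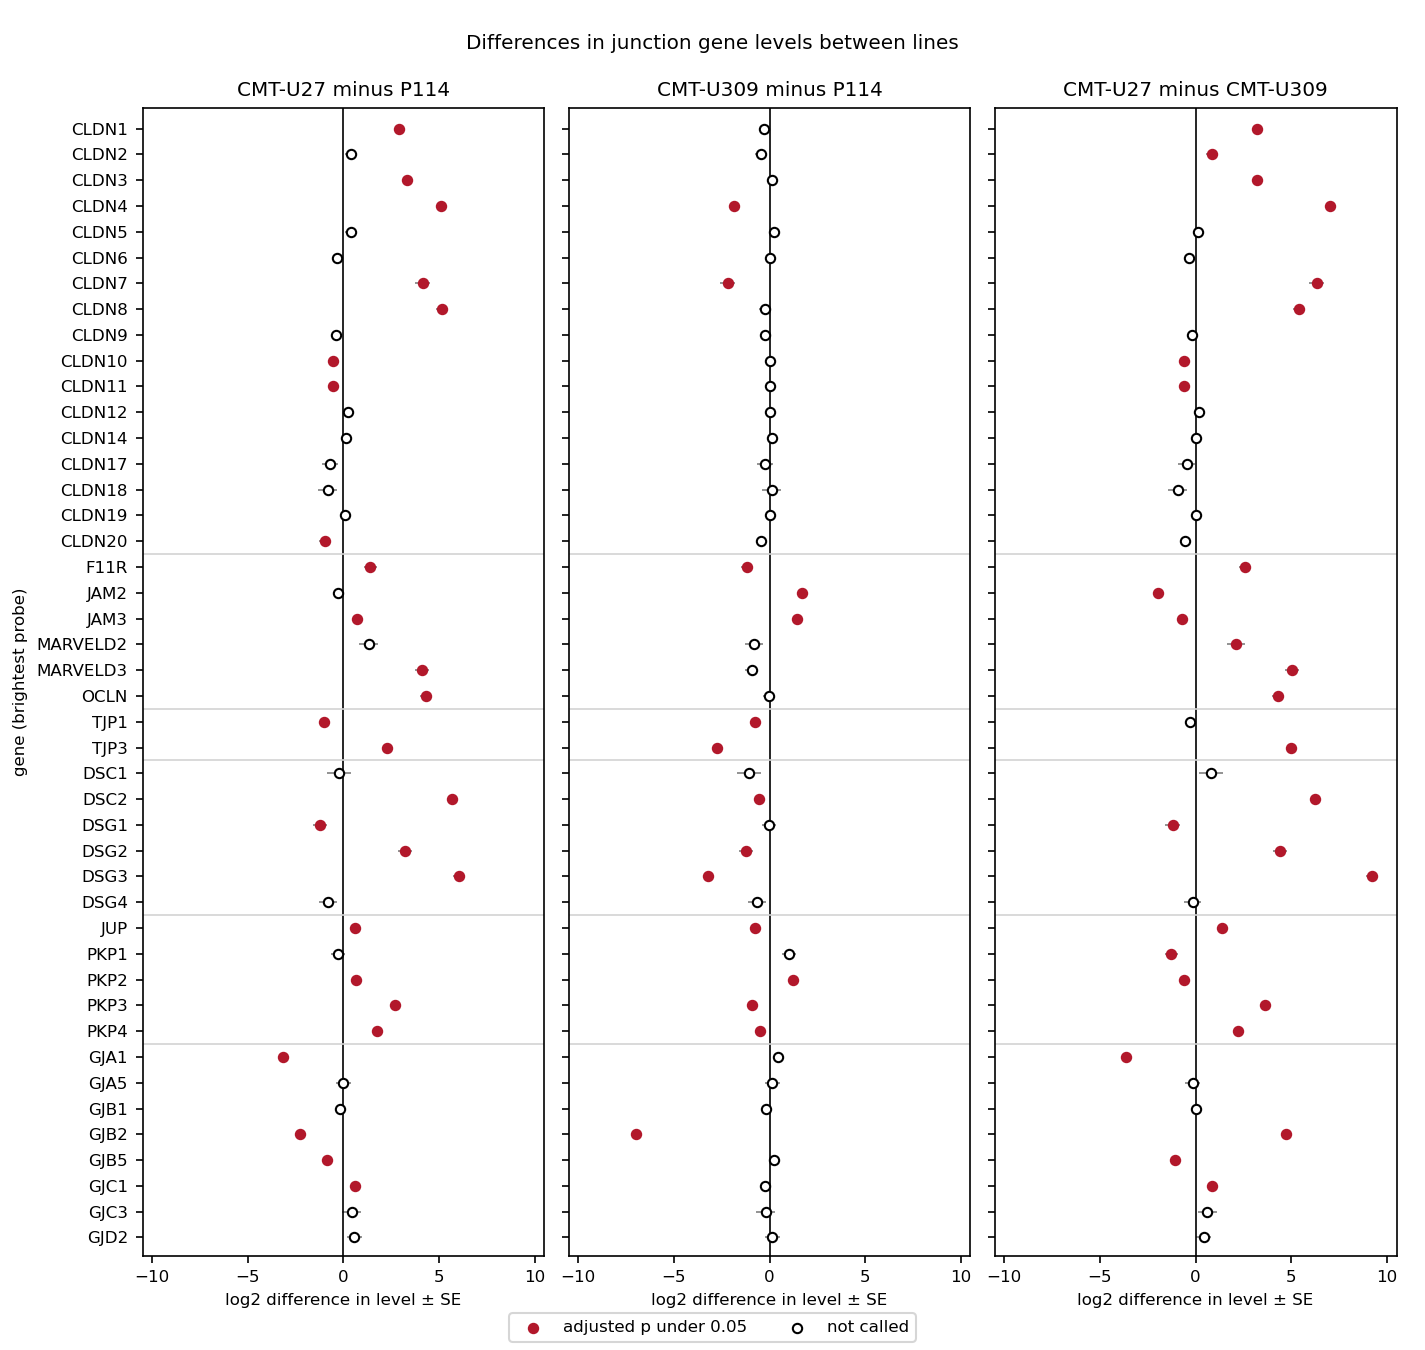
Difference in level between each pair of lines for 44 of the 47 tested genes, on the log2 scale with the standard error of the limma fit, filled where the adjusted p was under 0.05. CMT-U27 exceeds both other lines by over 4-fold in a block of claudins, OCLN, MARVELD3, TJP3, DSC2, DSG2, DSG3 and PKP3, whereas GJB2 lies far to the side of P114 against CMT-U309. Points of genes with 0 of 4 channels well above background in a line are fitted values and no bounds.

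Among the 17 tested claudins, 5 were higher in CMT-U27 than in P114 (29.4%, against 27% of all named genes), 3 were lower (20.1% of all) and 9 did not pass. The number called was thus near the share over all named genes, whereas all 5 higher claudins were over 4-fold, against 5.38% of all. The 5 were CLDN1, CLDN3, CLDN4, CLDN7 and CLDN8. CLDN1, a barrier-forming claudin of many epithelia, had levels of 8.80 and 8.38 in P114 (monoculture, then co-culture, as in the sentences that follow) and 11.27 and 11.67 in CMT-U27, against 8.13 and 8.42 in CMT-U309. CMT-U27 therefore lay above P114 by 2.88 ± 0.20 (log2, SE; 7.39-fold; limma adjusted p = 1.93e-06), while P114 and CMT-U309 overlapped. CLDN3, a barrier claudin common in glandular epithelium, had levels of 7.27 and 7.70 in P114 and 10.33 and 11.33 in CMT-U27, compared with 7.81 and 7.41 in CMT-U309. It was 10.2-fold higher in CMT-U27 than in P114 (limma adjusted p = 5.93e-06), and P114 and CMT-U309 again overlapped.

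CLDN4 and CLDN7, which regulate the passage of ions and are typical of glandular epithelium, set all 3 lines apart. CLDN4 stood at 5.19 and 4.86 in P114 and 9.92 and 10.37 in CMT-U27, against 3.36 and 2.94 in CMT-U309, where 0 of 4 channels were well above background. CMT-U27 was thus at least 92.6-fold above CMT-U309 (limma adjusted p = 1.98e-08) and 34.8-fold above P114 (2.06e-07), in which 2 of 4 channels were well above background. P114 was at least 2.91-fold above CMT-U309 (limma adjusted p = 4.89e-04), a call that was lost with normexp (adjusted p = 0.0696). For CLDN7 the levels were 7.81 and 6.71 in P114 and 11.15 and 11.65 in CMT-U27, compared with 5.83 and 4.32 in CMT-U309. The order of CLDN7 was the same as that of CLDN4 with no overlap, 17.6-fold between CMT-U27 and P114 (limma adjusted p = 1.37e-05) and -2.19 ± 0.38 for CMT-U309 minus P114 on the log2 scale (0.00174).

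CLDN8, a claudin of tight epithelia such as the distal nephron, was well above background in CMT-U27 alone. Its levels were 2.65 and 2.27 in P114 and 7.68 and 7.56 in CMT-U27, against 2.15 and 2.31 in CMT-U309. This placed CMT-U27 at least 9.22-fold above P114 (limma adjusted p = 9.42e-07) and at least 18.8-fold above CMT-U309 (6.10e-07). With normexp the differences of CMT-U27 minus P114 shrank to 2.42 for CLDN4, 2.74 for CLDN7 and 1.28 for CLDN8 on the log2 scale and stayed past the threshold.

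The other claudins differed little between the lines. CLDN11, the claudin of myelin and of Sertoli cells, had levels of 7.99 and 8.05 in P114 and 7.40 and 7.54 in CMT-U27, compared with 8.15 and 7.99 in CMT-U309, and was lower in CMT-U27 than in P114, with a difference of -0.55 ± 0.17 on the log2 scale (limma adjusted p = 0.0264). That call was lost without scaling, at a difference of -0.08, and without each RNA sample of CMT-U27 or CMT-U309 in turn (largest adjusted p = 0.23). By brightest probe, CLDN10 and CLDN20 were the other claudins lower in CMT-U27 than in P114, and CLDN2 was higher in CMT-U27 than in CMT-U309 (limma adjusted p = 0.0393). A second CLDN10 probe did not pass against P114 (limma adjusted p = 0.279), and CLDN20 was well above background in 2 of 4 channels of P114. CLDN14, known from the cochlea and the kidney, lay at 11.60 to 11.89 in all 6 RNA samples and CLDN19 at 9.10 to 9.33, with no call in any pair. For CLDN17 and CLDN18, 0 of 12 channels were well above background.

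The remaining tight junction membrane proteins numbered 6, and 4 of them were higher in CMT-U27 than in P114 (27% of all named genes were) while none was lower (20.1% of all). OCLN, which encodes occludin, had levels of 3.09 and 3.17 in P114 and 7.17 and 7.68 in CMT-U27, against 3.11 and 3.11 in CMT-U309. It was well above background in 4 channels of CMT-U27, 1 of CMT-U309 and 0 of P114, which gave at least 8.08-fold over P114 (limma adjusted p = 1.86e-06). MARVELD3, a relative of occludin, was likewise highest in CMT-U27, with 2.89 and 2.79 in P114 and 6.82 and 7.10 in CMT-U27, compared with 1.5 and 2.29 in CMT-U309. It was at least 5.96-fold higher in CMT-U27 than in P114 (limma adjusted p = 9.73e-06) and at least 12.9-fold higher than in CMT-U309 (1.87e-06). MARVELD2, which encodes tricellulin of the corners where cells meet, was dim, and well above background in 3 channels of CMT-U27 and in none of the other lines. Its levels of 4.23 and 3.83 in CMT-U27 were at least 2.03-fold above CMT-U309 (limma adjusted p = 0.00477).

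F11R and its relatives JAM2 and JAM3 are immunoglobulin-like adhesion proteins, and they did not share an order. F11R, which encodes JAM-A of epithelia and platelets, had levels of 6.57 and 6.35 in P114 and 7.69 and 8.06 in CMT-U27, against 5.91 and 4.65 in CMT-U309. Its levels did not overlap between lines, with 1.41 ± 0.33 between CMT-U27 and P114 (log2; limma adjusted p = 0.00638) and -1.18 ± 0.33 between CMT-U309 and P114 (0.0227). The first call was lost without the CMT-U27 co-culture RNA (0.86) and with eBayes without a trend (adjusted p = 0.0588). The second was lost without the CMT-U309 co-culture RNA (-0.51). It was also lost with normexp (adjusted p = 0.148), without scaling (0.338), with eBayes without a trend (0.119) and without replicate 1 (0.0776). The co-culture ratios of F11R on the CMT-U309 arrays were 0.51 and -3.03. JAM2, the endothelial JAM-B, was in contrast highest in CMT-U309, with 5.83 and 6.03 in P114 and 5.62 and 5.69 in CMT-U27, compared with 8.06 and 7.20 in CMT-U309. In CMT-U309 it exceeded P114 by 1.70 ± 0.27 (log2; limma adjusted p = 0.00117) and CMT-U27 minus CMT-U309 was -1.97 ± 0.27 (2.12e-04). JAM3, which encodes JAM-C of endothelial and other cells, went up from P114 (6.02 and 6.08) over CMT-U27 (6.87 and 6.65) to CMT-U309 (7.64 and 7.35), and each of these steps passed, at adjusted p values of 0.0162 and 0.0121 in limma. The first step was lost with normexp (0.0944), both were lost without either RNA sample of CMT-U27 (up to 0.133), and the second also without the CMT-U309 monoculture RNA (0.17). JAM2, JAM3 and PKP2 were the 3 genes that were higher in CMT-U309 than in P114.

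Among the genes of ZO proteins, TJP1 and TJP3 were well above background in all 12 channels and differed in opposite directions between CMT-U27 and P114. TJP3, which encodes ZO-3 of epithelial cells, had levels of 10.34 and 10.43 in P114 and 12.52 and 12.79 in CMT-U27, against 7.78 and 7.56 in CMT-U309. All 3 lines were apart for TJP3, by 4.83-fold between CMT-U27 and P114 (limma adjusted p = 1.72e-06) and 31.8-fold between CMT-U27 and CMT-U309 (5.63e-09). TJP1, the ZO-1 protein that is also found at contacts of non-epithelial cells, stood at 11.81 and 11.64 in P114 and 10.90 and 10.48 in CMT-U27, against 11.14 and 10.81 in CMT-U309. The difference from P114 was -1.03 ± 0.14 in CMT-U27 (log2; limma adjusted p = 1.69e-04) and -0.75 ± 0.14 in CMT-U309 (0.00237). The second difference of TJP1 was 0.03 without scaling and was lost when the arrays with Cy3-labelled co-culture RNA were left out (0.112). A second TJP1 probe, at 8.32 to 8.60 in all RNA samples, differed in no pair of lines (smallest limma adjusted p = 0.584), so the probes of TJP1 disagree.

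Among the 6 desmosomal cadherins, DSC2, DSG2 and DSG3 were higher in CMT-U27 than in both other lines, and DSG1 was lower. Against P114 these were 3 higher and 1 lower, where 27% and 20.1% of all named genes were. Against CMT-U309 they were also 3 and 1, where 31.2% and 21.3% of all were. DSC2, the most widespread desmocollin, had levels of 5.80 and 5.47 in P114 and 11.41 and 11.20 in CMT-U27, compared with 5.33 and 4.79 in CMT-U309. CMT-U27 was 50.9-fold above P114 (limma adjusted p = 8.41e-09) and 75.8-fold above CMT-U309 (3.82e-09). Between CMT-U309 and P114 the difference of -0.57 (adjusted p = 0.0387) turned to 0.20 without scaling. The second DSC2 probe, printed above, had levels of 5.24 and 4.02 in P114 and 11.25 and 11.25 in CMT-U27, against 1.55 and 1.84 in CMT-U309, with CMT-U27 at least 235-fold above CMT-U309, where it was not well above background.

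DSG3, a desmoglein of stratified epithelium and of basal cells, gave one of the widest ranges of the list. Its levels were 4.48 and 4.38 in P114 and 10.62 and 10.28 in CMT-U27, compared with 0.86 and 1.63 in CMT-U309, where 0 of 4 channels were well above background. CMT-U27 was at least 136-fold above CMT-U309 (limma adjusted p = 8.55e-09) and 64.8-fold above P114 (1.92e-07), and P114 was at least 2.32-fold above CMT-U309 (3.93e-05). DSG2, the desmoglein of simple epithelia, had levels of 3.85 and 3.03 in P114 and 6.57 and 6.71 in CMT-U27, against 2.18 and 2.25 in CMT-U309. It was 9.21-fold higher in CMT-U27 than in P114 (limma adjusted p = 5.80e-05), in which 1 of 4 channels was well above background, and at least 9.68-fold higher than in CMT-U309 (4.87e-06). With normexp the DSG2 difference between CMT-U27 and P114 was 0.76 on the log2 scale. DSG1, DSG4 and DSC1, which belong to the upper layers of skin or to hair, were near background, with DSG1 well above it in 1 channel of P114, 0 of CMT-U27 and 2 of CMT-U309 and the others in 0 of 12. For DSG1, CMT-U27 minus P114 was -1.22 ± 0.37 (log2; limma adjusted p = 0.0245) and CMT-U27 minus CMT-U309 was -1.2 ± 0.37 (0.0236), at these levels near background.

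The desmosomal cadherin genes lie side by side on chromosome 7. By probe position, DSG2 (chr7:60964367-60964426) and DSG3 (chr7:61026498-61026557) are followed by DSG4 (chr7:61082341-61082400), DSG1 (chr7:61142920-61142979), DSC1 (chr7:61327939-61327998) and DSC2. The outer genes of this row, DSG2, DSG3 and DSC2, were well above background in all 4 channels of CMT-U27, and the inner genes DSG4, DSG1 and DSC1 were so in 0 of them.

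Of the 5 plaque proteins, 4 were higher in CMT-U27 than in P114 (27% of all named genes were) and 1 did not pass. PKP3, which encodes the plakophilin found in desmosomes of most epithelia, had levels of 8.22 and 8.58 in P114 and 11.18 and 11.01 in CMT-U27, compared with 7.47 and 7.46 in CMT-U309. It was 6.47-fold higher in CMT-U27 than in P114 (limma adjusted p = 9.19e-07) and 12.3-fold higher than in CMT-U309 (9.58e-08). PKP4, a relative that also binds classical cadherins, had the same order, with 10.88 and 11.09 in P114 and 12.76 and 12.71 in CMT-U27, against 10.65 and 10.36 in CMT-U309, and its 4 probes all placed CMT-U27 on top. JUP, which encodes plakoglobin of both desmosomes and adherens junctions, lay within a narrower band, with 7.29 and 7.15 in P114 and 7.56 and 8.11 in CMT-U27, compared with 6.32 and 6.56 in CMT-U309. CMT-U27 exceeded CMT-U309 in JUP by 1.39 ± 0.21 (log2; limma adjusted p = 3.64e-04), and the step of 0.61 over P114 (0.0398) was lost with normexp (0.138) and under several other settings.

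PKP2, which desmosomes of the heart and of simple epithelia use, went another way than PKP3. Its levels were 6.0 and 6.04 in P114 and 6.53 and 6.78 in CMT-U27, against 7.04 and 7.50 in CMT-U309, so that the lines did not overlap and CMT-U309 was highest. It exceeded P114 by 1.25 ± 0.20 (log2; limma adjusted p = 0.0013), and CMT-U27 minus CMT-U309 was -0.61 ± 0.20 (0.0317), a step that was not called when any CMT-U27 or CMT-U309 RNA was left out. PKP1, of stratified epithelium, was well above background in 3 channels of CMT-U309 and in none of the other lines.

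Of 10 tested connexins, 1 was higher in CMT-U27 than in P114 (27% of all named genes were), 5 were lower (20.1% of all) and 4 did not pass. Against CMT-U309, 2 were higher in CMT-U27 (31.2% of all), 3 were lower (21.3% of all) and 5 did not pass. GJA1, which encodes connexin 43 of fibroblasts, myoepithelial cells and many others, had levels of 7.92 and 7.52 in P114 and 4.35 and 4.73 in CMT-U27, compared with 8.22 and 8.15 in CMT-U309. CMT-U27 was 9.03-fold lower than P114 (limma adjusted p = 2.32e-06) and 12.5-fold lower than CMT-U309 (7.67e-07), and P114 and CMT-U309 did not differ past the threshold. By brightest probe, GJA1 was the 1 gene of the list that was over 4-fold higher in CMT-U309 than in CMT-U27. JAM2 was 3.92-fold higher there by its brightest probe and 6.47-fold, 15.6-fold and 28.3-fold by other probes. The dimmest JAM2 probe was not well above background in CMT-U27 and gave at least 7.26-fold. With normexp the difference between CMT-U27 and P114 was -0.99 on the log2 scale, still past the threshold.

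GJB2, which encodes connexin 26 of secretory and other epithelia, was highest in P114. Its brightest probe had levels of 11.72 and 12.08 in P114 and 9.89 and 9.37 in CMT-U27, against 4.94 and 4.86 in CMT-U309. The lines were well apart, with CMT-U27 at 4.82-fold below P114 (limma adjusted p = 1.26e-05) and 26.5-fold above CMT-U309, and CMT-U309 minus P114 at -7.0 ± 0.20 on the log2 scale (9.67e-09). All 4 probes of GJB2 gave this order. For the printed probe the levels were 8.63 and 8.95 in P114 and 7.51 and 7.40 in CMT-U27, compared with 3.66 and 3.51 in CMT-U309. The other 2 probes were not well above background in CMT-U309, where P114 exceeded it at least 190-fold and at least 29.3-fold.

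GJB5, a connexin best known from skin, had levels of 8.30 and 8.32 in P114 and 7.62 and 7.25 in CMT-U27, compared with 8.35 and 8.70 in CMT-U309. It was lowest in CMT-U27 with no overlap, and the difference from P114 was -0.88 ± 0.20 (log2; limma adjusted p = 0.00501). The call was lost without scaling (0.11) and without the CMT-U27 co-culture RNA (0.0942).

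GJC1, the connexin 45 of the conduction system and vessels, was the 1 connexin higher in CMT-U27 than in P114, by 0.60 ± 0.18 on the log2 scale (limma adjusted p = 0.023). GJB1, which encodes connexin 32 of liver and secretory glands, was read by 4 probes that disagree. Its brightest probe lay at 16.16 to 16.55 in all RNA samples, and the next overlaps it over 57 bases and lay at 15.87 to 16.66. Another GJB1 probe lay at 3.85 to 5.36 and the last was well above background in 0 of 12 channels, so no line order of GJB1 is given.

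**Figure D3:**
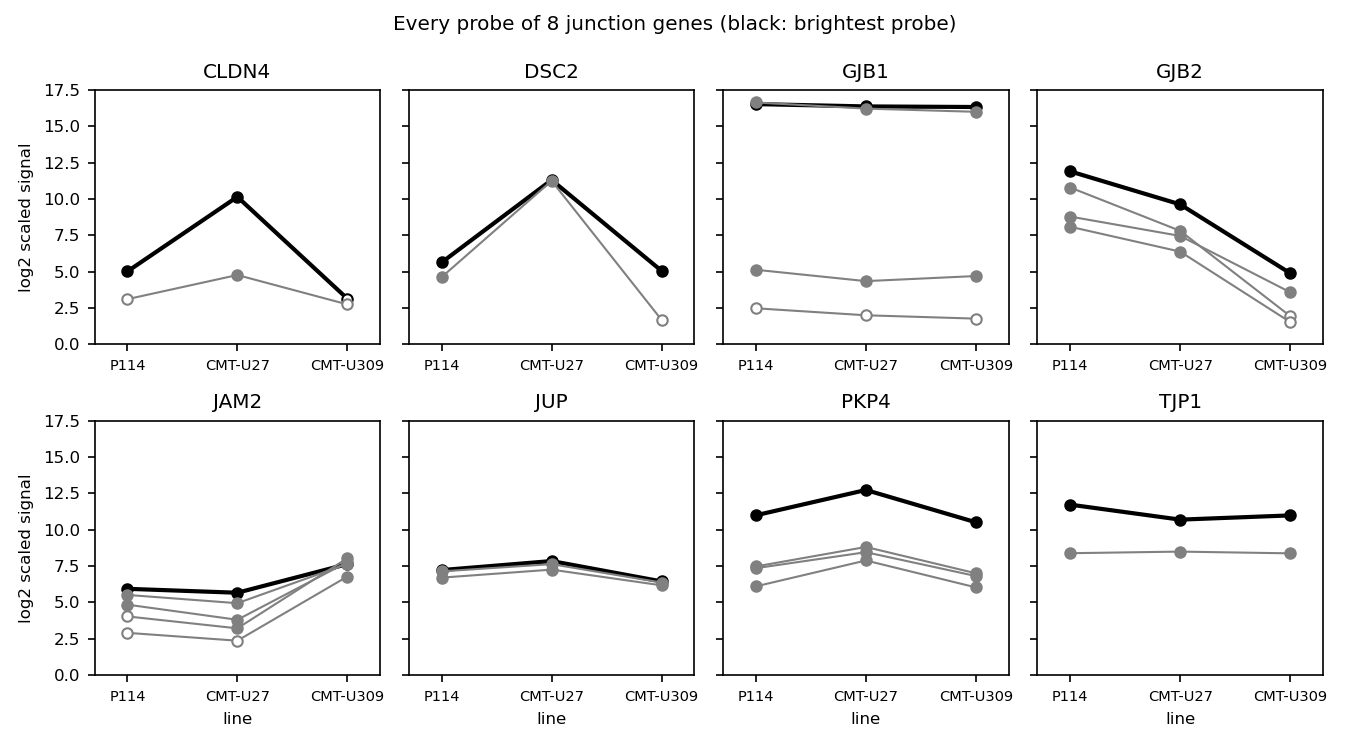
Levels of every probe of the genes with several probes that matter above, by line, as log2 scaled signal, black for the brightest probe and grey for the rest, with open points where a line had 0 of 4 channels well above background. GJB2, JAM2 and DSC2 keep the order of lines over their probes, GJB1 is split into bright and dim probes, and TJP1 differs between its probes.

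JAM2 was read by 5 probes, of which the first and second overlap over 54 bases and the next pair over 27. All 5 placed CMT-U309 on top, and against P114 the brightest gave a difference of 1.70 on the log2 scale and the next in level gave 2.13 and 2.93. The other JAM2 pair was well above background in 0 of 4 channels of P114, where CMT-U309 was at least 12.8-fold and at least 5.51-fold higher. A second CLDN4 probe (chr6:9495473-9495532) is placed on the plus strand, opposite to the CLDN4 probe printed above. Whether it reads the CLDN4 transcript was not tested. This probe was well above background in 3 channels of CMT-U27 and in none of the other lines. It placed CMT-U27 at least 1.43-fold above P114 (limma adjusted p = 0.0079).

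Other genes of epithelial contacts were taken as a list of 41, of which 37 were tested. Of these, 19 were higher in CMT-U27 than in P114 and 7 lower, 24 were higher and 8 lower in CMT-U27 than in CMT-U309, and 7 were higher and 9 lower in CMT-U309 than in P114, to be read against the shares of all named genes given above for each pair. Among 12 polarity proteins and adaptors, 8 were higher in CMT-U27 than in P114 and 2 lower (27% and 20.1% of all named genes). CGN, the cytoplasmic tight junction protein cingulin, had a mean level of 5.56 in P114 and 13.13 in CMT-U27, against 5.29 in CMT-U309, a difference of 7.57 ± 0.21 against P114 (log2; limma adjusted p = 3.41e-09). LSR, of the corners where cells meet, had 8.22, 12.04 and 3.52. All 4 desmosome-associated genes were higher in CMT-U27 than in P114 (27% of all named genes were), among them PERP (9.04, 12.89 and 7.06). Of 10 adherens junction genes, 3 were higher and 1 lower in CMT-U27 than in P114 (27% and 20.1% of all named genes), and 7 were higher and 2 lower than in CMT-U309 (31.2% and 21.3% of all). Among 9 regulators 4 were higher and 4 lower in CMT-U27 than in P114 (27% and 20.1% of all named genes). ZEB1, a repressor of epithelial junction genes, stood at 8.82 in P114 and 3.23 in CMT-U27, against 9.08 in CMT-U309, and SNAI2 of the same kind at 10.83, 4.85 and 11.16. Of the list, 4 genes also serve as epithelial markers above (CDH1, ESRP1, ESRP2 and ELF3).

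The co-culture question, whether MDSCs change these genes, was tested over the 3 lines, each given as the mean log2 ratio of its dye-swap. No junction gene passed an adjusted p of 0.05 in limma, and neither did any of the named genes (0.0% called). At the methods' thresholds, an unadjusted p under 0.05 and a change over 2-fold, 0 of 47 rose and 0 fell, where 0.667% and 0.167% of all named genes did. The methods' t-test over the 3 lines also called 0 of 47, and the smallest adjusted p of the list in limma was 0.498. At an unadjusted p under 0.05 alone there were 4 of 47, against 1247 of 13191. The mean ratios lay between -0.70 and 1.02, and 23 of 47 were above 0. Both arrays of a line gave the same sign for 13 genes in P114 (27.7%, against 40.4% of all named genes), 28 in CMT-U27 (59.6%, against 64.7%) and 27 in CMT-U309 (57.4%, against 53.5%).

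**Figure D4:**
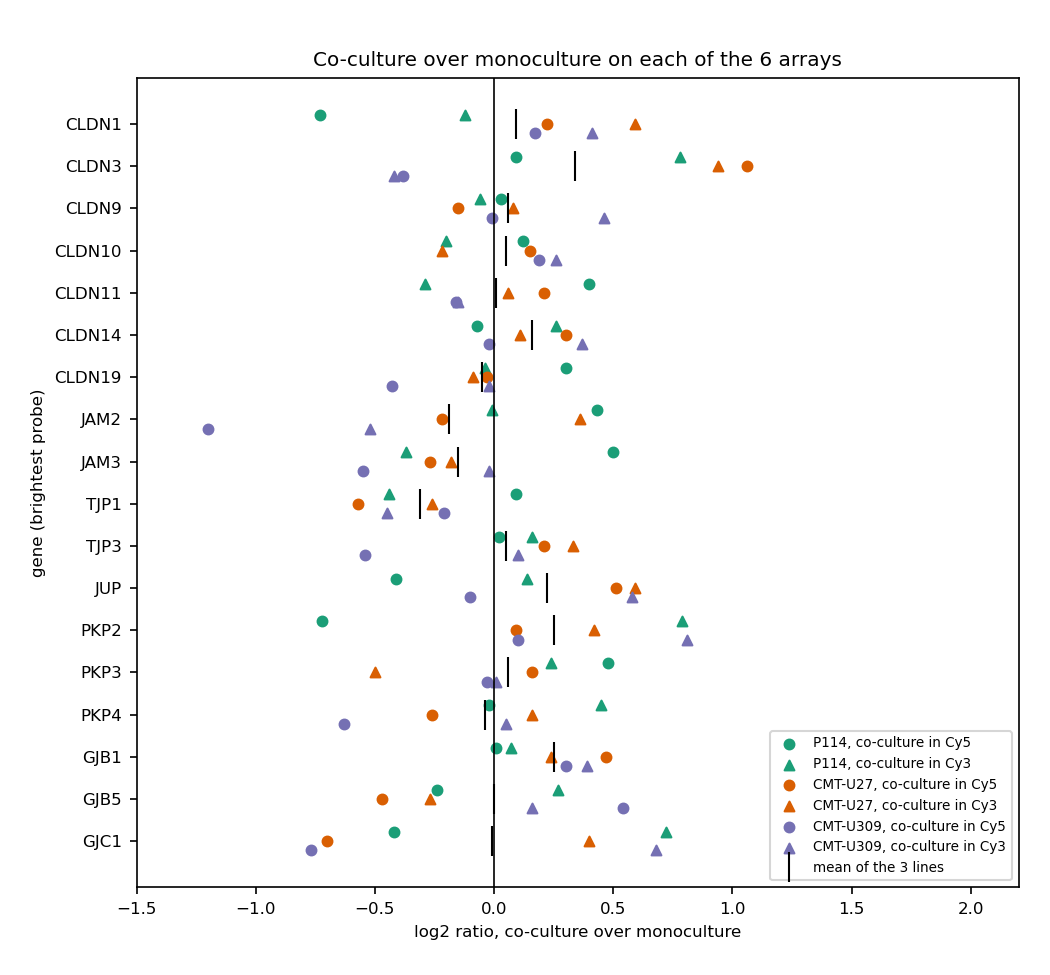
Log2 ratio of co-culture over monoculture on each of the 6 arrays for the genes well above background in all 12 channels, with circles and triangles for both dye orientations and a bar at the mean of the 3 lines. Points scatter around 0 on both sides, with CLDN3 of CMT-U27 near 1 on both arrays and the means of the genes shown between -0.31 and 0.34.

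By brightest probe, the 4 genes with an unadjusted p under 0.05 were CLDN7, TJP1, DSC2 and DSG4. TJP1 had ratios of 0.09 and -0.44 in P114, -0.57 and -0.26 in CMT-U27 and -0.21 and -0.45 in CMT-U309 (co-culture in Cy5, then in Cy3, as below), with a mean of -0.31 ± 0.11 (SE, n = 3 lines; limma adjusted p = 0.498). Its ratio was below 0 on 5 of 6 arrays, and the second TJP1 probe had a mean of -0.10 (limma unadjusted p = 0.455). DSC2 was below 0 on all 6, at -0.05 and -0.59, -0.05 and -0.37, and -0.33 and -0.75, with a mean of -0.36 ± 0.15 (limma adjusted p = 0.498). The second DSC2 probe was above 0 on 3 of 6 arrays, at -1.42 and -1.02, 0.12 and -0.13, and 0.40 and 0.18 (limma unadjusted p = 0.289). CLDN7 was split between the lines, with -0.66 and -1.53 in P114, 0.40 and 0.60 in CMT-U27 and -0.26 and -2.76 in CMT-U309. DSG4 had 0 of 12 channels well above background. Some dimmer probes gave smaller p-values. A JAM2 probe was below 0 on every array (mean -0.79; limma unadjusted p = 0.00262), although the brightest JAM2 probe gave -0.19 (0.407). In CMT-U309 every JAM2 probe was below 0 on both arrays, with means of -0.95 to -0.62. A dimmer GJB1 probe gave -0.89 (0.00633). These JAM2 and GJB1 probes had an adjusted p of 0.498 and were well above background in only part of the channels.

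CLDN1 and CLDN3 gave the same sign on both arrays of each line but not the same sign in all lines. CLDN3 had ratios of 0.09 and 0.78 in P114, 1.06 and 0.94 in CMT-U27, and -0.38 and -0.42 in CMT-U309. CLDN1 had -0.73 and -0.12 in P114, 0.22 and 0.59 in CMT-U27, and 0.17 and 0.41 in CMT-U309. The means over the lines were 0.34 ± 0.22 for CLDN3 (limma adjusted p = 0.568) and 0.09 ± 0.16 for CLDN1 (0.847). GJC1 was split by dye instead, below 0 on all 3 arrays with co-culture in Cy5 (-0.42, -0.70 and -0.77) and above 0 on the other 3 (0.72, 0.40 and 0.68), and its mean was -0.01 ± 0.15.

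GJB1 was above 0 on 6 of 6 arrays, at 0.01 and 0.07 in P114 and 0.47 and 0.24 in CMT-U27, against 0.30 and 0.39 in CMT-U309, with a mean of 0.25 ± 0.13 (limma adjusted p = 0.519). Its median over the 4 probes was -0.35. CLDN14 and PKP2 were the others with a mean above 0 in all 3 lines and well above background on all arrays, at 0.16 and 0.25. CLDN6, of embryonic epithelium, had a mean of -0.38, and the sign of CLDN6 and PKP2 changed when only arrays with co-culture RNA in Cy5 were used.

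Leaving out P114 brought 5 of 47 genes past the adjusted threshold, CLDN1, CLDN5, DSC1, GJB1 and TJP1, when 16.7% of all named genes passed. With only the arrays that carried co-culture RNA in Cy3, 3 genes passed (CLDN2, DSG4 and MARVELD2), against 5.7% of all named genes. Myeloid markers were read as a sign of MDSC RNA. Of 13, 10 were found, and the summed scaled signal in monoculture and co-culture was 1517 to 1684 and 1446 to 1769 in P114, 7709 to 8028 and 13528 to 13608 in CMT-U27, and 2058 to 2384 and 2292 to 2454 in CMT-U309. ITGAM and LYZ were well above background in 0 of 12 channels and PTPRC in 3, all of CMT-U309. Not every myeloid marker was dim. CD68 was well above background in every channel, with mean levels of 10.05 to 10.36 over the lines. MPO was so in all 4 channels of CMT-U309 (mean level 9.61), and S100A9 in those of CMT-U27 (9.03). S100A8, which epithelial cells also make, had a mean level of 13.06 in CMT-U27. Averaged over the 3 lines, the co-culture ratios were 0.18 for CD68, 0.13 for MPO, -0.27 for S100A9 and 0.09 for S100A8. These averages do not show the rise of the myeloid sum in CMT-U27, from at most 8028 to at least 13528. S100A8 was the brightest myeloid marker of that line, and its ratio within the line was not examined. Whether any of this signal came from MDSCs was not tested.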

How the data were processed

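RNA from 3 canine mammary tumor lines was examined on 6 Agilent 4x44K arrays. The authors deposited the scanner output of each array, with a processed signal intensity for each dye that Feature Extraction had background-subtracted and dye-normalized. The file headers give version 10.10.1.1 and the submitters' processing notes 10.7.3.1. A deposited table of log10 ratios of co-culture over monoculture served as an alternative. Control spots and outlier-flagged spots did not enter, channels were scaled to a common median of 67.86, probes with a maximal scaled intensity of 10 or less were removed, and repeated spots were averaged, which left 40873 probes. The number of arrays limits the precision.

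Groups follow the sample titles and the dye labels. The co-culture ratio was averaged over each dye-swap and tested against 0 over the 3 lines, and levels were fitted on 6 RNA samples with terms for line and co-culture, both with limma 3.58.1 in R 4.3.3 (lmFit, eBayes with a trend) and Benjamini-Hochberg adjustment over all probes. Nothing says whether RNA samples came from separate cultures, so p-values measure only the spread between these samples. Where a line had 0 of 4 channels well above background, a bound is given after loess and Aquantile normalization, as the mean of the brighter line over that of the dim line, whose arrays were set no lower than their faintest signal that still was well above background.

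Arrays with the same number share the dye orientation. Their deviations correlated at 0.356, 0.58 and 0.483 between lines over 40873 probes, so the fits were repeated with the replicate number as a block. At the methods' unadjusted thresholds it called 1 member in co-culture, DSC1, where the fit without it called 0, and at the adjusted threshold both called 0.

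Of the tested members, 3 are part of the counts over the list but are not reported here. The members, the lists and the named genes were chosen with earlier results of these data known. Named were 15 junction genes whatever their values, up to 6 genes in each direction for each pair of lines, and up to 3 in each direction in co-culture with 1 sign in all lines, each well above background in the higher group. DSC1, DSG4, CLDN10, GJC1 and others outside this rule were named after their values were seen. The reference table of dog genes held 47 of the 48 symbols (assembly UU_Cfam_GSD_1.0, used for names only). Tables were read with pandas 2.3.3 in Python 3.11.15 and plots drawn with matplotlib 3.10.9. Alternatives were normexp with loess, no scaling, no filter, only probes well above background, outlier spots kept, eBayes without a trend, the median over a gene's probes, quantile normalization, no co-culture term, each replicate, RNA sample or line left out, and the methods' t-test.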

Additional observations from a re-analysis of the deposited data

Results flagged for a closer look

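For 4 genes the 2 arrays of one line lay on one side of 0 and those of another line on the other side, in the log2 co-culture ratio. None of these differences was tested, since a line has 1 pair of RNA samples. CLDN1 was below 0 on both arrays of P114 and above 0 on those of the other lines, so the line means differed by -0.83 between P114 and CMT-U27 and by -0.71 between P114 and CMT-U309. CLDN3 was above 0 in P114 and CMT-U27 and below 0 in CMT-U309, with differences of 0.83 between P114 and CMT-U309 and 1.40 between CMT-U27 and CMT-U309. CLDN11 differed by 0.29 between CMT-U27 and CMT-U309. GJB5 went the other way between these lines, by -0.72.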

How the results depend on the processing

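For the genes named in the text by rule, of the values between lines, 349 of 378 for CMT-U27 against P114, 361 of 378 for CMT-U27 against CMT-U309 and 214 of 248 for CMT-U309 against P114 kept direction and side of the threshold over the alternatives, and 77 of 80 co-culture values did. Reversed were CMT-U309 minus P114 without scaling for DSC2 (0.20) and TJP1 (0.03), and co-culture over monoculture for GJB1 with the median over its probes (-0.35) and, without replicate 2, for CLDN6 (0.01) and PKP2 (-0.17). Without replicate 1 these kept their sign, so that leaving out a replicate gave -0.78 to 0.01 for CLDN6 and -0.17 to 0.67 for PKP2.

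Genes higher in P114 than in CMT-U27 fell from 10 to 5 without scaling and ranged from 5 to 9 when an RNA sample or replicate was left out. Genes higher in CMT-U309 than in P114 went from 3 to 6 with normexp and 18 without scaling, and those higher in P114 from 14 to 7 without scaling and 8 with eBayes without a trend. Genes higher in CMT-U309 than in CMT-U27 (10) ranged from 4 to 11 when an RNA sample or replicate was left out, with 4 without either RNA of CMT-U27 or of CMT-U309 and 6 without replicate 2, and were 13 without scaling.

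Co-culture calls at the methods' thresholds (0) ranged from 0 to 10 with a line or replicate left out and were 1 in the fit with the replicate block. The 10 of 47 came without replicate 1, where 10.3% of all named genes passed. CLDN17, CLDN18, DSC1 and DSG4 were among these 10 and had 0 of 12 channels well above background. Adjusted calls (0) ranged from 0 to 5, with 5 without P114 and 3 without replicate 1. The replicate block on the 12 channels gave 30, 17 and 29 genes past the threshold in the 3 pairs of lines, where the fit without it gave 29, 17 and 30, and changed no count of calls by over 1.5 times there. Signal over background limits CLDN4, CLDN8, OCLN, MARVELD2, MARVELD3, DSG2 and DSG3 to bounds in the dim lines.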
